A study of Mus musculus with 9 samples.

Results

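The genes described are the 10 mouse genes of the replication licensing machinery: Orc1, Cdc6, Cdt1, geminin (Gmnn) and the 6 subunits of the MCM2-7 helicase. They were chosen by name, with earlier results of these data known, and found by matching the Ensembl identifiers of the count tables to mouse symbols. All 10 of 10 passed the filter on low counts, among 19572 genes tested of 53379 listed. The samples were GFP-positive cells, labelled as neural progenitor cells of the C57Bl6DBa2 strain, sorted from mouse forebrains at embryonic stage E16.5, 2 days after in utero electroporation at E14.5. The first group (n = 3) carried pCAGGS-GemC1, the second (n = 3) carried pCAAGS-Mcidas, and the control group (n = 3) carried H2B-GFP. The labels write of plasmids combined "and/or" with H2B-GFP and do not say group by group whether the reporter was delivered together with a factor. pCAGGS plasmids drive their insert from a strong promoter that is active in most cell types, so the introduced copies were not under the genes' own control. A sorted pool holds whatever cells took up the DNA. The stated aim was to learn how GemC1 triggers the multiciliated fate.

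Licensing is the step that allows each stretch of DNA to be copied once per cell cycle. In G1 the origin recognition complex, of which Orc1 is a subunit, recruits Cdc6 and Cdt1, and these load the MCM2-7 helicase ring onto DNA. After S phase begins, geminin binds and blocks Cdt1, and Cdt1 is also marked for destruction, so that origins are not licensed again. GemC1 and Mcidas are relatives of geminin that share its coiled coil and, with E2F factors, switch on the genes of multiciliated cells, which have left the cell cycle. In the developing forebrain the licensing genes are best known from dividing radial glia and intermediate progenitors.

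Total counts ran from 22914704 to 41163917 per library. The introduced genes matched the labels: Gmnc, which encodes GemC1, had 8255, 6591 and 9651 counts in the GemC1 libraries, 9, 0 and 6 counts in the Mcidas libraries and 0 in each GFP library. Mcidas had 387.5, 507.5 and 596.9 CPM in the Mcidas libraries and between 60.2 and 76.8 CPM in the GemC1 libraries, against 0.647 to 0.69 CPM in GFP (CPM is the count scaled to a common library size, with TMM factors). All 10 progenitor markers examined were counted in every library, with summed levels of 1343 to 1523 CPM in GemC1, 968 to 1241 in Mcidas and 943 to 1225 in GFP. All 10 neuron markers were counted too, at 4485 to 4954 CPM in GemC1, 4738 to 5511 in Mcidas and 5468 to 6398 in GFP, so the pools also held RNA of neurons. The summed level of 10 microglia markers was 49.7 to 83.7 CPM in GemC1, 33.1 to 51.1 in Mcidas and 22.3 to 32.8 in GFP, with 8 of 10 called higher in GemC1 and 2 of 10 in Mcidas, and the part of these markers in the results was not tested. In pooled cells, fewer cells of a type and less RNA per cell cannot be told apart. A year code in the file names is shared by GemC1 and GFP and differs in Mcidas. Should it mark a batch, that batch cannot be told apart from the Mcidas plasmid.

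Libraries of 1 group differed in cell cycle genes, GFP replicate 3 and Mcidas replicate 1 among them. GFP replicate 3 had the lowest CPM of the 3 GFP libraries for all 10 licensing genes, where 33% of all genes tested were lowest in it. The same library was lowest for 28 of 33 other S phase genes and for 24 of 25 genes of G2 and mitosis. Its licensing genes lay a median of 0.253 log2 units below the GFP mean, its progenitor markers 0.213 below and its neuron markers 0.154 above. Mcidas replicate 1 was lowest of its group for 23 of 25 G2/M genes, a median of 0.309 log2 units below the Mcidas mean, while it was highest for 7 of 10 licensing genes and for 23 of 33 other S phase genes. Of all genes tested, 33.5% were lowest and 35.5% highest in it. Its progenitor markers lay 0.23 log2 units below the Mcidas mean and its neuron markers 0.141 above. Progenitor and neuron markers thus deviated the same way in these 2 libraries, while the licensing and S phase lists were low in the GFP library and high in the Mcidas library. In G2/M genes, Mcidas replicate 3 was highest of its group for 22 of 25, a median of 0.214 log2 units above its mean. GemC1 replicate 1 was lowest for 18 of 25 and GemC1 replicate 3 highest for 18 of 25, at median deviations of -0.13 and 0.113. What set these libraries apart was not tested, and values without each are given where they change a result.

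**Figure D1:**
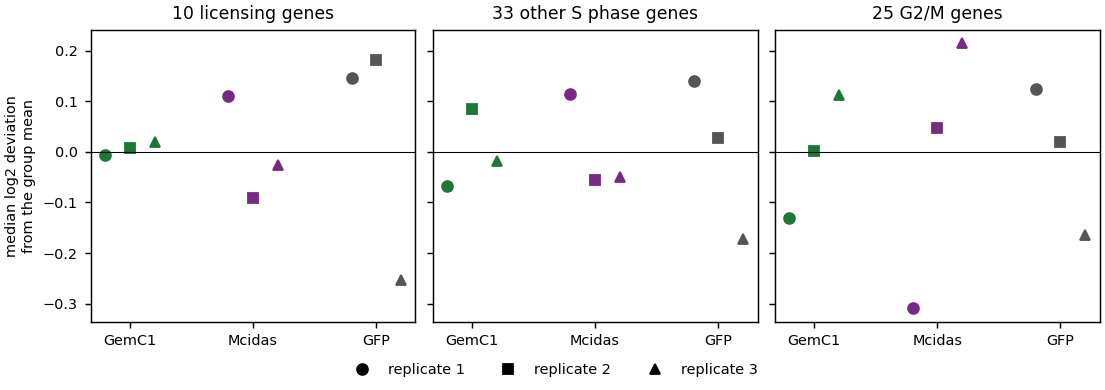
Median deviation of 3 gene lists in each library from the mean of its own group (y axis, log2 units of CPM; x axis, group; symbols, replicates). GFP replicate 3 lies below its group mean in all 3 lists, at -0.253 for the licensing genes, and Mcidas replicate 1 lies above it for the licensing and S phase lists but at -0.309 for the G2/M list.

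Cdt1, the factor that brings MCM2-7 to origins and the direct target of geminin, was the member that changed most in both factor groups. In the GemC1 libraries it stood at 66.5, 66.5 and 72.4 CPM, against 29.7, 27.9 and 18.3 CPM in the GFP libraries. The groups did not overlap, and the 3 GemC1 libraries lay close together. The mean was 68.5 ± 3.4 CPM in GemC1 and 25.3 ± 6.12 CPM in GFP (SD, n = 3 each), which is 2.7-fold. The log2 fold change was 1.43 ± 0.15 (SE, edgeR quasi-likelihood test, Benjamini-Hochberg adjusted p = 8.48e-05). Cdt1 was the only member called in GemC1 at an adjusted p under 0.05, 1 of 10, where 3.86% of all genes tested were called higher, 1.32% lower and 5.19% in either direction. None of the 10 was called lower by edgeR or DESeq2, and none had an unadjusted p under 0.05 on that side. On the higher side 2 had in edgeR, Cdt1 and Mcm3. The GemC1 and GFP libraries did not overlap for 2 members that were higher, Cdt1 and Mcm3, against 13.2% of all genes tested, and for 0 that were lower, against 11.7%. Among genes called higher in GemC1, 457 had a larger fold change than Cdt1. Without GFP replicate 3, the log2 fold change was 1.25.

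In the Mcidas libraries Cdt1 was at 142.1, 132.7 and 155.1 CPM, against the same 29.7, 27.9 and 18.3 CPM in GFP. Every Mcidas library was thus above every GFP library. The mean was 143.3 ± 11.2 CPM in Mcidas and 25.3 ± 6.12 CPM in GFP (SD, n = 3 each), which is 5.65-fold. The log2 fold change was 2.5 ± 0.15 (SE, edgeR quasi-likelihood test, adjusted p = 1.11e-06). Mcidas replicate 1, whose Foxj1, a forkhead factor of ciliated cells, was at 95.8 CPM against 170.2 and 183.3 in replicates 2 and 3, had 142.1 CPM of Cdt1, between the 132.7 and 155.1 CPM of those replicates. Only 13 of 19572 genes had a smaller adjusted p than Cdt1 in this comparison, and 89 did in GemC1 against GFP. The 2 comparisons share their 3 GFP libraries and are not independent.

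Cdt1 was lower in GemC1 than in Mcidas. Its mean of 68.5 ± 3.4 CPM in GemC1 was under that of 143.3 ± 11.2 CPM in Mcidas (SD, n = 3 each), with no overlap. The log2 fold change of GemC1 over Mcidas was -1.06 ± 0.14 (SE, edgeR quasi-likelihood test, adjusted p = 0.0234). In edgeR, 0.0153% of all genes tested (3 genes) were called higher in GemC1, 0.0358% lower (7 genes) and 0.0511% in either direction, and Cdt1 was the 1 member among them. That count depended on the method, with 195 higher and 304 lower by DESeq2 and 66 and 129 by edgeR without a low-count filter. None of the members was called higher in GemC1 than in Mcidas by edgeR or DESeq2, while 3, Cdc6, Mcm4 and Mcm6, had an unadjusted p under 0.05 in edgeR. On the lower side 2 had, Cdt1 and Mcm3. As a guide, 2145 of 19572 genes, in either direction, had a smaller adjusted p than Mcm4 here. For Gmnn, at an unadjusted p of 0.0569 (edgeR), 2770 had. The share of all genes at an unadjusted p under 0.05 is not given, here or for the other counts at that level. The libraries of the 2 factors did not overlap for 4 members that were higher in GemC1, against 9.07% of all genes tested, and for 2 that were lower, against 7.64%. The size of the difference was between -1.12 and -1 under 17 alternatives, while the adjusted p rose to between 0.0689 and 0.115 in 6 of them: with the replicate number as a block, and without GemC1 replicate 1, 2 or 3, Mcidas replicate 2 or Mcidas replicate 3. The Mcidas plasmid also gave more Mcidas RNA than was counted in the GemC1 libraries, and how much of either factor's protein each cell held was not measured.

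**Figure D2:**
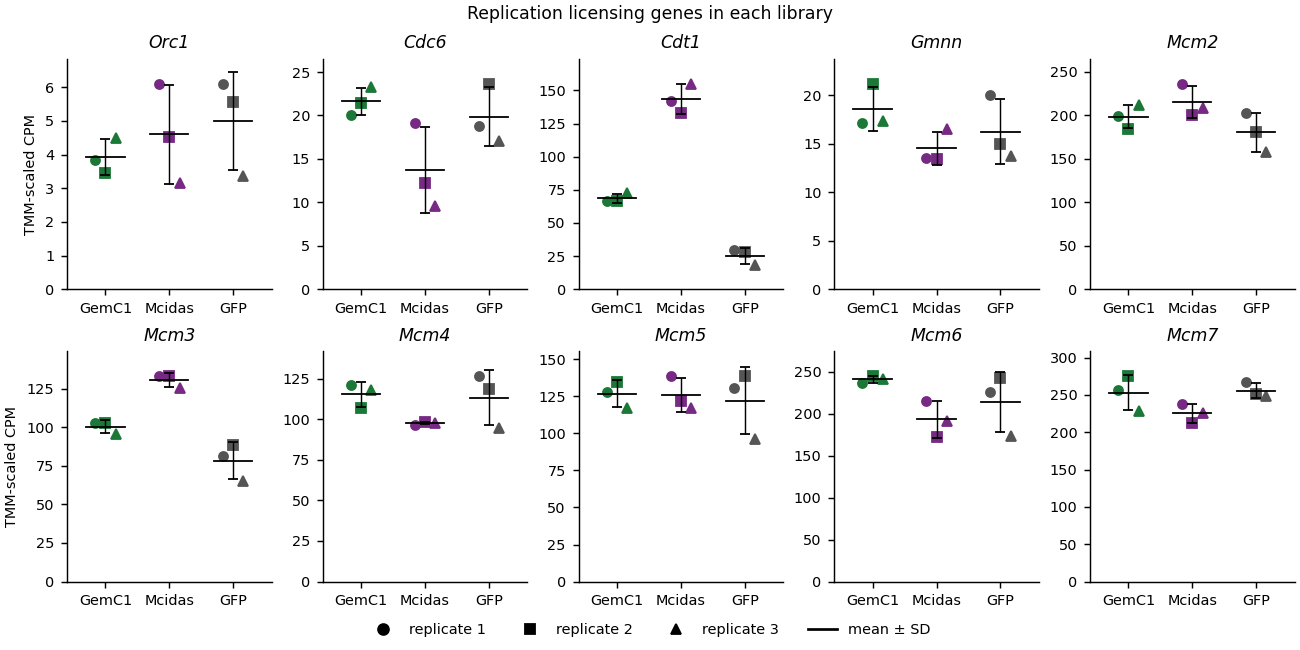
TMM-scaled CPM (y axis, linear from 0) of each of the 10 licensing genes in the GemC1, Mcidas and GFP libraries (x axis), with symbols for replicates, a line at the group mean and bars of 1 SD. Cdt1 falls into 3 separate levels, near 68.5, 143.3 and 25.3 CPM, and Mcm3 follows the same order with smaller steps, whereas the libraries of the 3 groups overlap for Orc1, Mcm2 and Mcm5.

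Cdt1 (ENSMUSG00000006585) lies on the plus strand of chromosome 8 at 122568015 to 122573554 of mm10, and Mcm3 (ENSMUSG00000041859) on the minus strand of chromosome 1 at 20802968 to 20820312. Since E2F factors are the known activators of licensing genes, the RefSeq windows from 250 bases before to 50 bases after the transcription start (GRCm38.p6, the assembly of mm10) were searched on both strands for 4 spellings of the E2F site, TTTGGCGC, TTTCCCGC, TTTGGCGG and TTTCGCGC. Windows were found for 8 of 10 members, with 2 windows for Mcm7, and none for Gmnn and Mcm4. Any of the 4 spellings was present in 7 of the 9 windows, belonging to 7 genes, and in 2.37% of all 32851 windows. Both members that rose, Cdt1 and Mcm3, held one, as did Cdc6, Orc1, Mcm5, Mcm6 and Mcm7, which were not called. With a match in 7 of the 8 members that had a window, presence of these letters could not tell called from uncalled members. In Mcm5 and in Mcm6, a TTTGGCGC and a TTTCGCGC on opposite strands overlap. Mcm2 held none of the 4. The windows of the 2 members that rose and of 2 that did not are shown, 5′ to 3′ on the gene's own strand, with the E2F letters in capitals: Cdt1 at chr8:122567765-122568064 (+), Mcm3 at chr1:20820263-20820562 (-), Mcm6 at chr1:128359656-128359955 (-) and Mcm2 at chr6:88898731-88899030 (-).
Cdt1: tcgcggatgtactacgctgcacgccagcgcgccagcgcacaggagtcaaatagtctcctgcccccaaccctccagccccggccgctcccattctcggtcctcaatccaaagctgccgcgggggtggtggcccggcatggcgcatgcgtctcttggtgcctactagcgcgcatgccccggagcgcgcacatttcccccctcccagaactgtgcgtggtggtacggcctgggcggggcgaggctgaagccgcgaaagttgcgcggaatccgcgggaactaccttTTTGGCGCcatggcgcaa
Mcm3: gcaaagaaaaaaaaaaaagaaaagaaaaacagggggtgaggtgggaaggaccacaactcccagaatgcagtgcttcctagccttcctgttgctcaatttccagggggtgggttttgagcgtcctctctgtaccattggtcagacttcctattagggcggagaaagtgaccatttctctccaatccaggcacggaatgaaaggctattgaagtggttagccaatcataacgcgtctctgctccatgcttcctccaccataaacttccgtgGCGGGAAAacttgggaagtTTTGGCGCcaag
Mcm6: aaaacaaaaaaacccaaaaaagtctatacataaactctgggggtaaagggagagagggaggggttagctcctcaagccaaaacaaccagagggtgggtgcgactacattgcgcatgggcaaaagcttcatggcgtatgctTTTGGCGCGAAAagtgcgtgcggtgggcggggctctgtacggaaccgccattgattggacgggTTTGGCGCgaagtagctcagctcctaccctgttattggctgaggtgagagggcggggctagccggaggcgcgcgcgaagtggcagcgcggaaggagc
Mcm2: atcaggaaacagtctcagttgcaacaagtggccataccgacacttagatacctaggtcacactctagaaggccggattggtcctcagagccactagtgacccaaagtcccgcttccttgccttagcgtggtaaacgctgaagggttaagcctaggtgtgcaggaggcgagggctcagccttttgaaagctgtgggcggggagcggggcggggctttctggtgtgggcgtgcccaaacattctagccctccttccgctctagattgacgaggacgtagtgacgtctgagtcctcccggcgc
Counted from the first transcribed base as 1, the Cdt1 match covers bases 33 to 40, and the Mcm3 matches cover bases 39 to 46 and, on the opposite strand, 20 to 27, all downstream of the start. The Mcm6 matches lie upstream, at -110 to -103, -47 to -40 and, on the opposite strand, -106 to -99. TTTGAA, the letters of the CHR element of G2/M promoters, occurred in Mcm2 (at -70 to -65) and in none of the other members' windows, against 17.9% of all windows. A match is a description of letters and does not show binding.

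Geminin itself did not pass the test in either factor group. Gmnn (chromosome 13, 24751845 to 24761923, minus strand) had 17.1, 21.2 and 17.4 CPM in the GemC1 libraries and 13.6, 13.5 and 16.54 CPM in the Mcidas libraries, against 20, 15 and 13.7 CPM in the GFP libraries. The GFP range held 2 of the 3 GemC1 libraries and 1 of the 3 Mcidas libraries, and the remaining 3 lay just outside it. The log2 fold change was 0.19 ± 0.17 in GemC1 (SE, adjusted p = 0.583) and -0.16 ± 0.17 in Mcidas (adjusted p = 0.802; edgeR quasi-likelihood test). Between the factors, every GemC1 library was above every Mcidas library, with a log2 fold change of 0.36 ± 0.17 (edgeR, adjusted p = 0.402).

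The balance between the transcripts of Cdt1 and its inhibitor differed between the groups. Per kilobase of exon, Cdt1 over Gmnn was 2.11, 1.7 and 2.26 in the GemC1 libraries and 5.69, 5.36 and 5.09 in the Mcidas libraries, against 0.804, 1.01 and 0.726 in the GFP libraries. The 3 groups did not overlap. On the log2 scale the ratio averaged 1.01 ± 0.21 in GemC1, 2.43 ± 0.08 in Mcidas and -0.25 ± 0.25 in GFP (SD, n = 3 each). Leaving out any one library kept the difference between 1.16 and 1.4 for GemC1 minus GFP and between 2.57 and 2.81 for Mcidas minus GFP. The ratio is of transcripts and was not tested, and both proteins are controlled by destruction in the cell cycle, which counts of RNA do not measure.

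**Figure D3:**
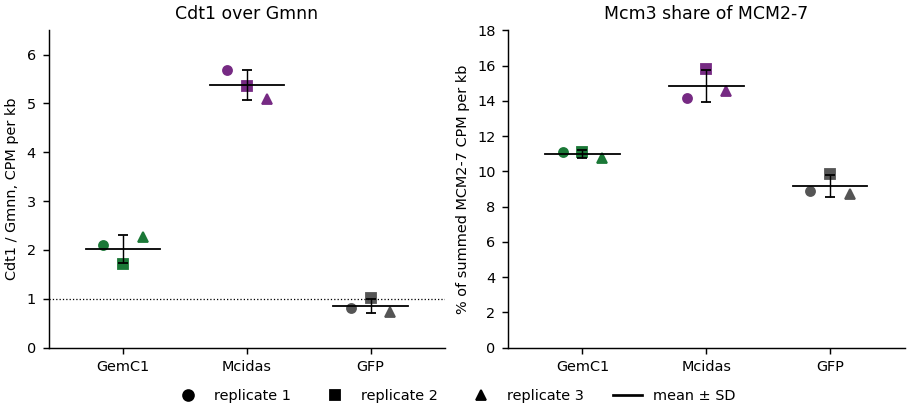
Left, ratio of Cdt1 to Gmnn in CPM per kilobase of exon (y axis, linear from 0; the dotted line marks equal levels); right, share of Mcm3 in the summed MCM2-7 level per kilobase (y axis, percent); x axis, groups; symbols, replicates; line and bars, mean and 1 SD. The Cdt1 to Gmnn ratio averages 2.02 in GemC1, 5.38 in Mcidas and 0.848 in GFP, and the Mcm3 share averages 11%, 14.8% and 9.15%, with no overlap in either panel. Shares of Mcm2, Mcm4, Mcm6 and Mcm7, not drawn, did not overlap between Mcidas and GFP either.

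The other loading factors did not pass the test. Cdc6, the ATPase that joins ORC before MCM2-7 is loaded (chromosome 11, 98907801 to 98923940), had 20.1, 21.5 and 23.3 CPM in GemC1, against 18.8, 23.6 and 17.1 CPM in GFP (log2 fold change 0.12 ± 0.22 SE, adjusted p = 0.816, edgeR). In Mcidas it had 19.2, 12.2 and 9.61 CPM, so replicate 1 lay within the GFP range and replicates 2 and 3 below it (log2 fold change -0.53 ± 0.22, adjusted p = 0.308, edgeR). Without Mcidas replicate 1, Cdc6 was called lower, at a log2 fold change of -0.85 (adjusted p = 0.014, edgeR). Orc1, the ORC subunit whose level oscillates in the cell cycle (chromosome 4, 108579423 to 108614833), was the scarcest member, with 73 to 226 counts per library. It had 3.84, 3.46 and 4.5 CPM in GemC1 and 6.1, 4.54 and 3.16 CPM in Mcidas, against 6.08, 5.55 and 3.36 CPM in GFP. The groups overlapped, and the log2 fold changes were -0.35 ± 0.29 in GemC1 and -0.11 ± 0.29 in Mcidas (adjusted p = 0.567 and 0.931, edgeR).

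Of the 6 subunits of the MCM2-7 ring, Mcm3 alone passed the test, and only in Mcidas. Mcm3 was at 133.1, 132.9 and 125.1 CPM in the Mcidas libraries, against 81.3, 88.4 and 65 CPM in the GFP libraries. All Mcidas libraries were above all GFP libraries, and the log2 fold change was 0.74 ± 0.10 (SE), or 1.67-fold (edgeR quasi-likelihood test, adjusted p = 0.000775). Together with Cdt1 this made 2 of 10 members called higher in Mcidas, against 4.03% of all genes tested, and 0 of 10 lower, against 0.327%, while 4.35% of all genes were called in either direction. The Mcidas and GFP libraries did not overlap for 2 members that were higher, against 10.7% of all genes tested, and for 1 that was lower, Mcm7, against 8.87%. None of the members was called lower by DESeq2 either, and 1 of them, Cdc6, had an unadjusted p under 0.05 in edgeR on that side. On the higher side 3 had, Cdt1, Mcm3 and Mcm2. In GemC1, Mcm3 stood at 102.5, 103 and 95.5 CPM, again above each GFP library, with a log2 fold change of 0.36 ± 0.10 (adjusted p = 0.0717, edgeR). DESeq2 called it there (adjusted p = 0.0249), as did edgeR without a low-count filter (adjusted p = 0.0301). The other 15 of 17 alternatives did not, with an adjusted p of up to 0.263 (edgeR). Leaving out single libraries gave log2 fold changes of 0.24 to 0.46. Between the factors, the log2 fold change of GemC1 over Mcidas was -0.38 ± 0.10 for Mcm3 (adjusted p = 0.188, edgeR), with no overlap of libraries, and DESeq2 called it (adjusted p = 0.0319).

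The remaining 5 subunits were not called in any comparison. Their log2 fold changes lay between -0.016 and 0.17 in GemC1 and between -0.21 and 0.26 in Mcidas. Mcm2 (chromosome 6, 88883474 to 88898780), whose subunit also carries histones at the fork, had 199.4, 184.4 and 211.5 CPM in GemC1 and 236.2, 200.8 and 208.4 CPM in Mcidas, against 202.8, 180.4 and 157.3 CPM in GFP. The GemC1 and Mcidas ranges both overlapped the GFP range, at log2 fold changes of 0.14 ± 0.10 and 0.26 ± 0.10 (SE, adjusted p = 0.501 and 0.294, edgeR). Mcm4 (chromosome 16, 15623897 to 15637400) was nearly level in Mcidas, at 96.7, 98.2 and 97.7 CPM, against 126.5, 118.7 and 94.3 CPM in GFP, and 106.6 to 121.1 CPM were counted in GemC1. Mcm5 (chromosome 8, 75109569 to 75128439) ranged from 117 to 135 CPM in GemC1 and from 116.9 to 138.6 CPM in Mcidas, against 96.3 to 138.7 CPM in GFP. Mcm6 (chromosome 1, 128331590 to 128359664) had 237.1, 244.9 and 241.1 CPM in GemC1 and 215.7, 172.6 and 191.4 CPM in Mcidas, against 225.6, 242.9 and 173.9 CPM in GFP. The GFP libraries spanned nearly the whole range of the other groups. Mcm7 (chromosome 5, 138164583 to 138172422) had 228 to 275.1 CPM in GemC1 and 212 to 238.2 CPM in Mcidas, against 248.3 to 267.9 CPM in GFP. Its Mcidas libraries all lay below its GFP libraries, and edgeR gave a log2 fold change of -0.18 ± 0.09 (SE) with an adjusted p of 0.403.

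**Figure D4:**
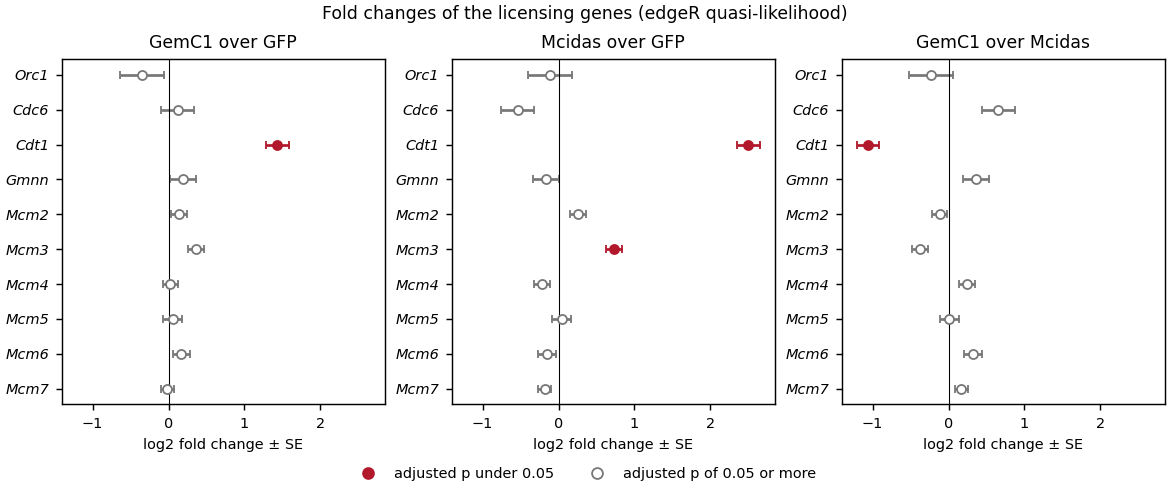
Log2 fold changes with their SE (x axis) of the 10 licensing genes (y axis) in GemC1 over GFP, Mcidas over GFP and GemC1 over Mcidas. Filled red points passed an adjusted p of 0.05: Cdt1 in all 3 panels, at 1.43, 2.5 and -1.06, and Mcm3 in Mcidas over GFP, at 0.74, and open grey points did not.

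The MCM2-7 proteins form a ring with 1 copy of each, but their transcripts were not counted at equal levels. Per kilobase of exon in GFP, Mcm7 led at 86.4 ± 3.57 CPM per kb (SD, n = 3), apart from the rest, followed by Mcm2 at 53.4 ± 6.75, Mcm6 at 49 ± 8.21, Mcm5 at 35.3 ± 6.53, Mcm4 at 31.5 ± 4.68 and Mcm3 at 25.8 ± 3.96. From Mcm2 down to Mcm3 each neighbouring pair overlapped between libraries. Gmnn, at 13.7 ± 2.82, and Cdt1, at 11.6 ± 2.8, came next and overlapped each other, and Cdc6, at 4.15 ± 0.71, and Orc1, at 1.66 ± 0.48, came last. In GemC1, Cdt1 at 31.3 ± 1.55 CPM per kb overlapped Mcm4 at 32.1 ± 2.12 and no longer overlapped Gmnn at 15.6 ± 1.91. In Mcidas, Cdt1 at 65.5 ± 5.14 stood second of the 10, overlapping Mcm2 at 63.8 ± 5.53 and below Mcm7 at 76 ± 4.43. The highest MCM subunit was 2.44 to 3.13 times the lowest in GemC1 and 2.62 to 2.99 times in Mcidas, against 2.91 to 3.91 times in GFP. The share of Mcm3 in the summed level of the ring genes was 11.1%, 11.1% and 10.8% in GemC1 and 14.1%, 15.8% and 14.53% in Mcidas, against 8.88%, 9.85% and 8.73% in GFP. The summed MCM2-7 level was 1011 to 1049 CPM in GemC1 and 938.1 to 1058 CPM in Mcidas, against 835.1 to 1035 CPM in GFP. The sums overlapped between all groups, whereas the Mcm3 shares did not. Between Mcidas and GFP, other shares did not overlap either. That of Mcm2 was higher in Mcidas (21.5% to 22.6%, against 18.1% to 19.9%), and those of Mcm4, Mcm6 and Mcm7 were lower. Shares of a common sum depend on each other, and they were not tested. Lengths are those of the union of GENCODE basic exons, and the share of each isoform was not measured, so levels of different genes are approximate.

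Around these 10 genes, 42 further genes of licensing, its control and origin firing were examined, and all 42 were tested. This list and the S phase and G2/M lists below were chosen with earlier results of these data known. Their shares of called genes are descriptions. In GemC1, 3 rose and 0 fell, against 3.86% and 1.32% of all genes tested. In Mcidas, 4 rose and 0 fell, against 4.03% and 0.327%. DESeq2 called 0 lower in both, and 1 in each had an unadjusted p under 0.05 in edgeR on that side, Orc4 in GemC1 and Ccne2 in Mcidas. On the higher side 4 had in GemC1 and 5 in Mcidas. The median log2 fold change of the 42 was 0.055 in GemC1 and -0.025 in Mcidas, beside -0.00038 and -0.028 over all genes tested. The genes called by edgeR were Dtl, Wdhd1 and Lrwd1 in both groups and Rif1 in Mcidas, and DESeq2 called these 4 in both groups.

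Dtl encodes the receptor by which the CRL4 ubiquitin ligase recognises Cdt1 on replicating DNA. It had 120.6, 120.6 and 127 CPM in GemC1 and 136.1, 139.5 and 132.1 CPM in Mcidas, against 79.8, 72.7 and 61.6 CPM in GFP. All factor libraries were above all GFP libraries, at log2 fold changes of 0.78 ± 0.09 and 0.93 ± 0.09 (SE, adjusted p = 0.000269 and 4.93e-05, edgeR). Transcripts of Cdt1 and of a part of the machinery that removes Cdt1 protein were thus both higher. Wdhd1, a fork protein that links the helicase to DNA polymerase alpha, rose by 0.61 ± 0.11 in GemC1 and 0.59 ± 0.11 in Mcidas on the log2 scale (adjusted p = 0.00751 and 0.0071, edgeR). Lrwd1, a protein bound to ORC, rose by 0.51 ± 0.11 and 0.54 ± 0.11 (adjusted p = 0.0183 and 0.0117, edgeR). The Lrwd1 calls were lost without GFP replicate 1 (adjusted p = 0.065 and 0.062), without GFP replicate 2 (0.0784 and 0.0551), without GemC1 replicate 1 (0.0597, GemC1) and without Mcidas replicate 3 (0.0546, Mcidas). Rif1, which with protein phosphatase 1 holds back origin firing, was at 257.3, 272.5 and 299.5 CPM in Mcidas, against 147.9, 176 and 154.5 CPM in GFP (log2 fold change 0.79 ± 0.10, adjusted p = 0.000429, edgeR). In GemC1 it had 184.3, 187.6 and 230.1 CPM, with 0.33 ± 0.10 (adjusted p = 0.093, edgeR). DESeq2 called it there (adjusted p = 0.0423), as did edgeR without a low-count filter (adjusted p = 0.0371). The other 15 of 17 alternatives did not, with an adjusted p of up to 0.296 (edgeR). Leaving out single libraries gave log2 fold changes of 0.22 to 0.42.

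The other genes of that list were not called, and their log2 fold changes lay between -0.36 and 0.33 in GemC1 (39 genes) and between -0.40 and 0.25 in Mcidas (38 genes). Orc2 and Orc6, further ORC subunits, had 0.021 ± 0.098 and -0.097 ± 0.119 in GemC1 and -0.12 ± 0.10 and -0.11 ± 0.12 in Mcidas. Cdc45, which joins MCM2-7 to make the active helicase, had 0.14 ± 0.15 and -0.33 ± 0.15. Skp2, the receptor of a second ligase that acts on Cdt1, had 0.15 ± 0.10 in GemC1 and 0.22 ± 0.10 in Mcidas. The 2 E cyclins, which drive entry into S phase, had opposite signs, with Ccne1 at 0.33 ± 0.17 and 0.25 ± 0.17 and Ccne2 at -0.33 ± 0.17 and -0.40 ± 0.17 in GemC1 and Mcidas. Adjusted p for these 6 genes lay at 0.297 or above in both comparisons (edgeR).

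**Figure D5:**
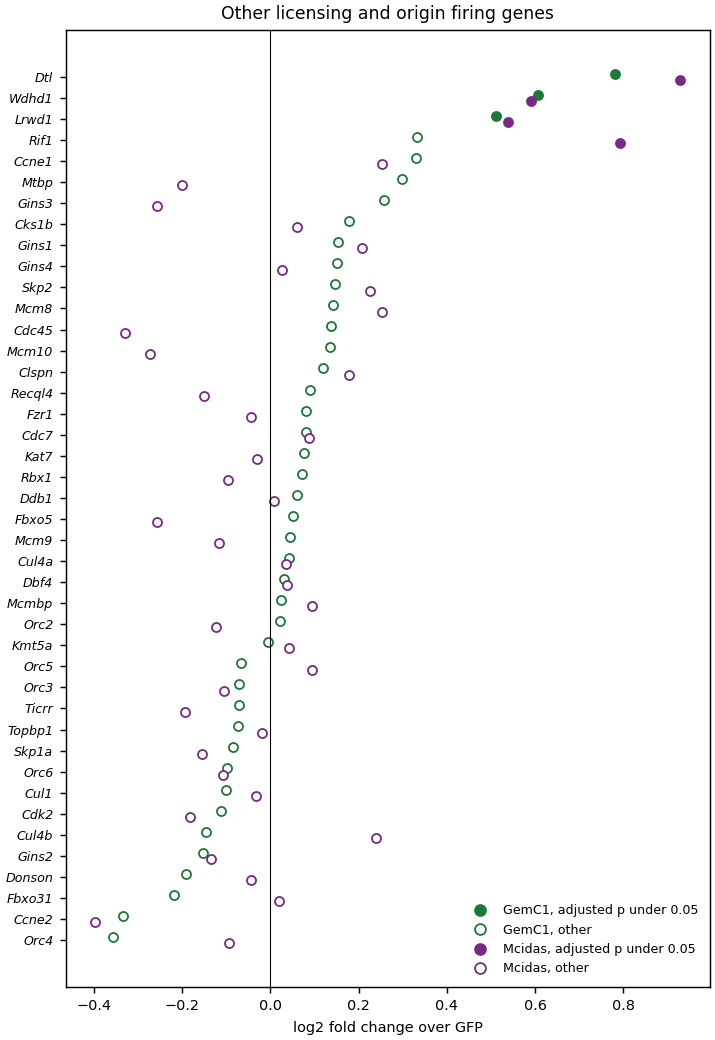
Log2 fold changes over GFP (x axis) of 42 other genes of licensing and origin firing (y axis, ordered by GemC1) in GemC1 (green) and Mcidas (purple); filled points passed an adjusted p of 0.05. Dtl, at 0.78 and 0.93, stands at the top with Wdhd1 and Lrwd1, Rif1 is filled for Mcidas alone, and the other points lie between -0.40 and 0.33. Both comparisons use the same 3 GFP libraries.

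Genes of the rest of the cell cycle gave the setting. Of 33 other S phase genes, 4 rose in each factor group and 0 fell, with median log2 fold changes of 0.148 in GemC1 and 0.0174 in Mcidas. Of all genes tested, 3.86% rose and 1.32% fell in GemC1, and 4.03% rose and 0.327% fell in Mcidas. Called or not, 29 of the 33 had a positive log2 fold change in GemC1 and 17 in Mcidas. Of all 19572 genes tested, 9774 and 8810 had. GFP replicate 3, used in both comparisons, was the lowest GFP library for 28 of these 33 genes. Their median in it was 0.173 log2 units below the GFP mean. Signs were not counted without that library, so these counts do not show a rise of the list. DESeq2 called 6 higher in GemC1, adding Rpa1 and Chaf1b, and 5 higher in Mcidas, adding Chaf1b. It called 0 lower in GemC1 and 1 lower in Mcidas, Rrm2. In edgeR, 1 in GemC1 and 3 in Mcidas had an unadjusted p under 0.05 on the lower side, and 9 and 7 on the higher side. The 4 that rose were the same in both. E2f7, an E2F repressor, had 78.2, 82 and 87.7 CPM in GemC1 and 79.2, 105.7 and 103.9 CPM in Mcidas, against 25.4, 24.1 and 23.3 CPM in GFP. Its log2 fold changes of 1.77 ± 0.12 and 1.99 ± 0.12 (adjusted p = 2.52e-06 and 7.65e-07, edgeR) exceeded that of Cdt1 in GemC1 and not in Mcidas. The others were Slbp, which binds histone transcripts (0.72 ± 0.09 and 0.95 ± 0.09), Lig1, the DNA ligase of the lagging strand (0.51 ± 0.10 and 0.996 ± 0.098), and Pola2, a subunit of DNA polymerase alpha (0.54 ± 0.12 and 0.67 ± 0.12). The Pola2 call in GemC1 did not hold in 6 of the alternatives, among them the replicate block (adjusted p = 0.0557) and the fits without GFP replicate 3 (adjusted p = 0.124), without GFP replicate 2 (0.0842), without GemC1 replicate 1 (0.0602) and without GemC1 replicate 3 (0.0822). Pcna, the sliding clamp, had 0.22 ± 0.11 and 0.025 ± 0.108 (adjusted p = 0.281 and 0.963, edgeR).

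Of 25 genes of G2 and mitosis, 1 rose in GemC1, against 3.86% of all genes tested, and 0 in Mcidas, against 4.03%. None fell in either, against 1.32% and 0.327%, and DESeq2 called 0 lower in GemC1. In Mcidas, DESeq2 called 1 higher, Cdk1, and 1 lower, Ccna2. In edgeR, 2 in GemC1 and 1 in Mcidas had an unadjusted p under 0.05 on the higher side, and on the lower side 1 had in GemC1 and 2 had in Mcidas. The gene called was Cdk1, the mitotic kinase, at 0.60 ± 0.15 in GemC1 (adjusted p = 0.0408, edgeR), and 8 of 17 alternatives ended that call. Its adjusted p was 0.0877 with the replicate block and 0.182 and 0.127 when GFP replicate 3 or 2 was left out. It was 0.0872, 0.0914 and 0.103 when GemC1 replicate 1, 2 or 3 was left out, and 0.0656 when Mcidas replicate 2 was. Mki67, a marker of dividing cells, had 87.3, 123 and 131.2 CPM in GemC1 and 99.2, 111 and 135.5 CPM in Mcidas, against 124.9, 145.8 and 114.8 CPM in GFP. The groups overlapped, at log2 fold changes of -0.18 ± 0.15 and -0.16 ± 0.15 (adjusted p = 0.585 and 0.779, edgeR). Cdt1 thus rose in both factor groups, as did Dtl, Wdhd1, Lrwd1, E2f7, Slbp, Lig1 and Pola2. Mki67 and the MCM subunits other than Mcm3 were not called in either.

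The genes whose log2 CPM followed a member most closely over the 9 libraries were taken from 11143 genes of at least 3 log2 CPM on average. For Cdt1 they were Lig1 (Pearson r = 0.985), Galnt1 (0.981), the introduced gene Mcidas (0.974), Paqr4 (0.969) and Zfp382 (0.969). For Gmnn they were Lamtor4 (0.968), Gm49327 (0.954), Gm16861 (0.952), Mtg1 (0.938) and Trmt13 (0.937), and for Mcm2 they were Dlgap3 (0.927), Timeless (0.925), Sema5b (0.914), Rbmxl1 (0.903) and Zkscan5 (0.892). No member of the licensing set was among the 5 closest to Cdt1, Gmnn or Mcm2. With 5 places among 11143 genes, this says little about whether the members vary together. Orc1 lay under the cut on level and could not appear. The 9 libraries fall into 3 groups and share those differences, so the values describe likeness and were not tested.

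Reads of a member could have been shared with other genes. Processed pseudogenes of at least 90% identity over 300 bases or more were found for Cdc6 (Gm9430), Gmnn (Gm6510), Mcm4 (Gm9577) and Mcm7 (Gm5487). The first 3 had at most 3 counts in any library. Gm5487, which is 97.7% identical over 2157 bases, was not among the counted identifiers matched to GENCODE M21. Its counts could not be seen, so Mcm7 counts are less certain. Exons of other genes cover 12.6% of Mcm7 exon bases, where Cops6 and Ap4m1 lie on the other strand, and 10.8% of Orc1, where Gm12743 does. Neither kit marks strand, so reads there cannot be told apart. Mcm5 transcripts align over 75 to 299 bases with transcripts of 775 other genes. For Cdt1 and Mcm3, no exon overlap and no such copy was found.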

How the data were processed

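RNA of 9 sorted samples, 3 per group, was read as 75 bp reads from libraries made from 10 ng of RNA by SMART-Seq v4 amplification and Nextera XT, per the labels' protocols. The authors deposited 1 table of unnormalised counts per library, with Ensembl genes as rows, per the file headers and their whole-number values. Named in the submitters' processing notes, with no role or order, are mm10, DESeq2 1.8.1, HTSeq 0.5.3 and STAR 2.5.2b. The strand setting and the annotation release were not given in the sources used here. Of 53379 identifiers, 53274 matched GENCODE M21 (GRCm38).

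Genes were kept by filterByExpr (minimum count 10, total 15), libraries scaled by TMM, and all 9 fitted with group as the only term in edgeR 4.0.16 (R 4.3.3; quasi-likelihood test, two-sided). Calls were made at an adjusted p under 0.05 (Benjamini-Hochberg, 19572 genes). SE is the log2 fold change divided by the square root of the quasi-likelihood F. The fit was tested on simulated data. Alternatives were DESeq2 1.42.0, its size factors in edgeR, other count filters, pairwise fits, a replicate block, a fit without mitochondrial, globin and plasmid genes, a 2-fold minimum and leaving out each library. Members and lists were chosen with earlier results of these data known. Named genes are the members, any gene of the 3 cell cycle lists called against GFP, a few fixed uncalled ones, and the 5 nearest in profile to Cdt1, Gmnn and Mcm2. Foxj1, Orc4, Rpa1, Chaf1b, Rrm2 and Ccna2 were named after their values were seen. The labels do not say that replicates came from separate litters, and p-values then cover only the variation among the samples at hand, which may be technical. Replicates of a group were distinct libraries: chi-square over degrees of freedom was 14.1 to 25.8 for their pairs. A floor of 3 counts is 0.0729 to 0.131 CPM, and covers counting error only.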

Additional observations from a re-analysis of the deposited data

Results flagged for a closer look

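Cdt1 differed between the 2 factors by a direct test of the difference. Its log2 fold change of GemC1 over Mcidas was -1.06 ± 0.14 (SE, edgeR quasi-likelihood test, adjusted p = 0.0234), lower in 3 of 3 GemC1 libraries than in every Mcidas library, and the adjusted p ranged from 4.56e-09 (DESeq2) to 0.115 over 17 alternatives. None of the other 9 members was called in that comparison by edgeR, and DESeq2 also called Mcm3.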

How the results depend on the processing

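Cdt1 was called in both comparisons with GFP under all 17 alternatives, with log2 fold changes of 1.25 to 1.56 in GemC1 and 2.32 to 2.63 in Mcidas, and Mcm3 in Mcidas under 16, all but the 2-fold minimum (0.62 to 0.85). Of 510 member fold changes under the alternatives, 483 kept their direction and their side of the threshold. The 2-fold minimum reused the 9-library fit, so directions could not change there. Leaving out a library of the group not compared acts mainly through the shared spread and scaling. DESeq2 called 1159 genes higher and 658 lower in GemC1 (63.8% higher, 74.5% in edgeR), 112 lower in Mcidas, and 195 higher and 304 lower in GemC1 against Mcidas, with 2 members higher in GemC1, and 2 members and 1 other licensing gene, Rif1, lower in GemC1 than in Mcidas. Without a low-count filter, 930 were higher and 557 lower in GemC1 (62.5% higher), 123 lower in Mcidas, and 66 higher and 129 lower between the factors, with 2 members higher in GemC1 and 1 other licensing gene lower between the factors. A 2-fold minimum left 40 lower in GemC1, 16 lower in Mcidas and 4 lower between the factors, 1 member higher in Mcidas, and 0 of the other licensing genes in GemC1 and 0 in Mcidas, since none of their fold changes reached 2-fold. Between the factors 2 genes were lower in the pairwise fit (60% of calls higher, 30% in the 9-library fit) and 3 without mitochondrial, globin and plasmid genes. The replicate block gave 147 lower in GemC1, 3 lower between the factors (50% higher) and 0 members lower there (Cdt1 adjusted p = 0.109). Deviations of same-numbered libraries correlated at -0.0744 to 0.0465, and those of differently numbered libraries at -0.0768 to 0.118. Correlations this small cannot show whether same-numbered samples were handled together.

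Leaving out single libraries gave 443 to 877 higher in GemC1 (756 with all), the lowest without GFP replicate 3 and 472 without GFP replicate 2. It gave 32 to 267 lower in GemC1 (259 with all), with 32 and 42 without GFP replicates 3 and 2 and 162, 161 and 163 without GemC1 replicates 1 and 2 and Mcidas replicate 2. It gave 29 to 99 lower in Mcidas (64 with all; 99 lacking Mcidas replicate 1, 29 lacking 2 and 33 lacking 3, and 37 lacking GFP replicate 1, 30 lacking 2 and 35 lacking 3) with 0 to 1 members lower, and 3 to 5 higher, 1 to 8 lower and 0 to 1 members lower between the factors (7 lower with all, 1 lacking Mcidas replicate 2, 3 lacking GemC1 replicate 2 or any 1 GFP library, 4 lacking GemC1 replicate 3; 3 higher with all, 5 lacking GemC1 replicate 1 or Mcidas replicate 3). Signs turned, with none of these values called, for Mcm4 (-0.088 to 0.116), Mcm5 (-0.088 to 0.166), Mcm7 (-0.076 to 0.053) and Orc2 (-0.043 to 0.108) in GemC1, for Gmnn (-0.27 to 0.022), Orc1 (-0.36 to 0.089), Mcm5 (-0.095 to 0.159) and Pcna (-0.014 to 0.076) in Mcidas, and for Orc1 (-0.44 to 0.021) and Mcm5 (-0.042 to 0.083, and -0.0044 with at least 1 CPM in 3 libraries) between the factors. The causes were not tested. Depth limits Orc1 most, with 73 to 226 counts per library.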
